A study of Danio rerio with 2 samples.

Results

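The crystallins are the proteins that fill the fibre cells of the eye lens. The genes described here are the alpha, beta and gamma crystallins of the zebrafish, read from 89 of the 43553 probes on each of 2 Agilent arrays. A probe was taken when its gene symbol began as those of the alpha, beta or gamma families do (83 probes) or when its description alone named such a crystallin (6 probes). The 89 probes stood for 52 of 27197 genes and unnamed targets. Zeta, lambda and mu crystallins, cryptochromes and 13 probes for small heat shock proteins described as alpha-crystallin-related were left out. The rule used names and no measured value.

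One array held total RNA of wild type (WT) embryos of the AB line, and the other total RNA of Tg(RE:HSE:EGFP) embryos, also of the AB background and of the F2 generation. The transgenic line was made with a plasmid in which heat shock switches on both EGFP and a human RUNX1-Evi-1 fusion from a promoter that reads in both directions and is not limited to a tissue. Embryos of both groups were heat shocked at 38 °C for 1 hour, which the labels place between 14 and 18 hpf, and the labels give 72 hpf for the RNA of both. The array methods and the labels describe embryos, with no sorting by EGFP and no isolation of blood cells, while the results text of the study speaks of blood cells. The values are read here as those of whole embryos, and genes of lens, muscle and epidermis were above background on both arrays. The methods state that samples were analysed in triplicate, but 1 array per group was analysed here, and the sources do not say whether each holds a mean of several. The number of embryos pooled is not given either. With 1 array per group there is no spread between embryos and no p-value, and a batch cannot be told apart from the genotype. In RNA of whole embryos, a different number of lens cells and a different amount of crystallin RNA per cell cannot be told apart either.

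The alpha crystallins are small heat shock proteins, which hold partly unfolded proteins in solution, while the beta and gamma crystallins are structural proteins that share a fold of Greek key motifs. Beta crystallins assemble into oligomers and gamma crystallins are mostly monomers. Fish have in addition a large, methionine-rich gamma M family, which packs densely in their hard, spherical lens. Lens fibre cells make crystallins in very large amounts as they elongate, before they lose their nuclei and other organelles.

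The values are normalized log2 signals, so a difference of 1 is 2-fold, and every difference below is the Tg array minus the WT array. The arrays had the same 75th percentile (9.59), medians of 7.18 (WT) and 7.17 (Tg), and a Pearson's r of 0.980 across probes, which are not independent replicates. A probe was called above background when its signal passed 6.72 on the WT array or 6.73 on the Tg array, the 95th percentile of 170 probes for chemosensory receptors, which few cells of an embryo express. A gene's brightest probe, by its mean over both arrays, stood for the gene, and the signal of one probe was not read against that of another as a level of expression. No probe is named for EGFP or the fusion gene, so the labels could not be checked through the transgene. For hdac4, a histone deacetylase gene, the direction on these arrays was opposite to the one the study describes. Its 2 probes read 11.37 for WT and 11.03 for Tg (difference -0.34), and 7.88 and 6.70 (difference -1.19). gata1a, an erythroid regulator, was lower on the Tg array at its brighter probe (10.15 for WT and 9.20 for Tg, -0.95). Its other probe differed less (8.43 and 8.14, -0.29). The brighter probe of spi1b, the myeloid factor pu.1, was higher (8.83 and 9.30, 0.46). The other spi1b probe, below background on both arrays, was lower (6.46 and 6.03, -0.425). The brighter probes of these regulators had the direction that the study describes, but the study measured it by quantitative RT-PCR. For the histone deacetylase gene the study used microarrays. The regulators are therefore not a like comparison and do not settle the labels. The arrays are named by their labels throughout.

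Crystallin signals were higher on the array labelled Tg for nearly all genes that were measurable, and most of all for the gamma M family. Out of 52 genes, 44 passed the background limit, namely 33 on both arrays, 10 on the Tg array only and 1 on the WT array only. At a threshold of 2-fold, 26 of the 44 were higher on the Tg array, while 4.72% of all 16131 genes above background were. Only 1 crystallin, cryaba, was at least 2-fold lower, beside 3.54% of all genes, and 8.26% of all genes passed 2-fold in either direction. The other 17 were not called at 2-fold. For those among them above background on the Tg array only, the bound was under 2-fold, which does not show the difference itself to be so. The 10 genes that passed the background limit on the Tg array only could differ in 1 direction alone, so the 33 genes measured on both arrays give the plainer comparison. Their median difference was 1.77, and that of all 52 genes, dim ones included, was 1.12, beside -0.03 for all genes above background. Of these 33, 21 were at least 2-fold higher and 32 had a difference above 0, the exception being si:ch211-152c2.2. crybb3 was counted as higher by its brightest probe, though its second probe was lower on the Tg array. Among all 14424 genes above background on both arrays, 47.4% had a difference above 0. Of the 50 highest differences among those genes, 13 belonged to crystallins, all of the gamma M family, and none of the 50 lowest did.

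**Figure D1:**
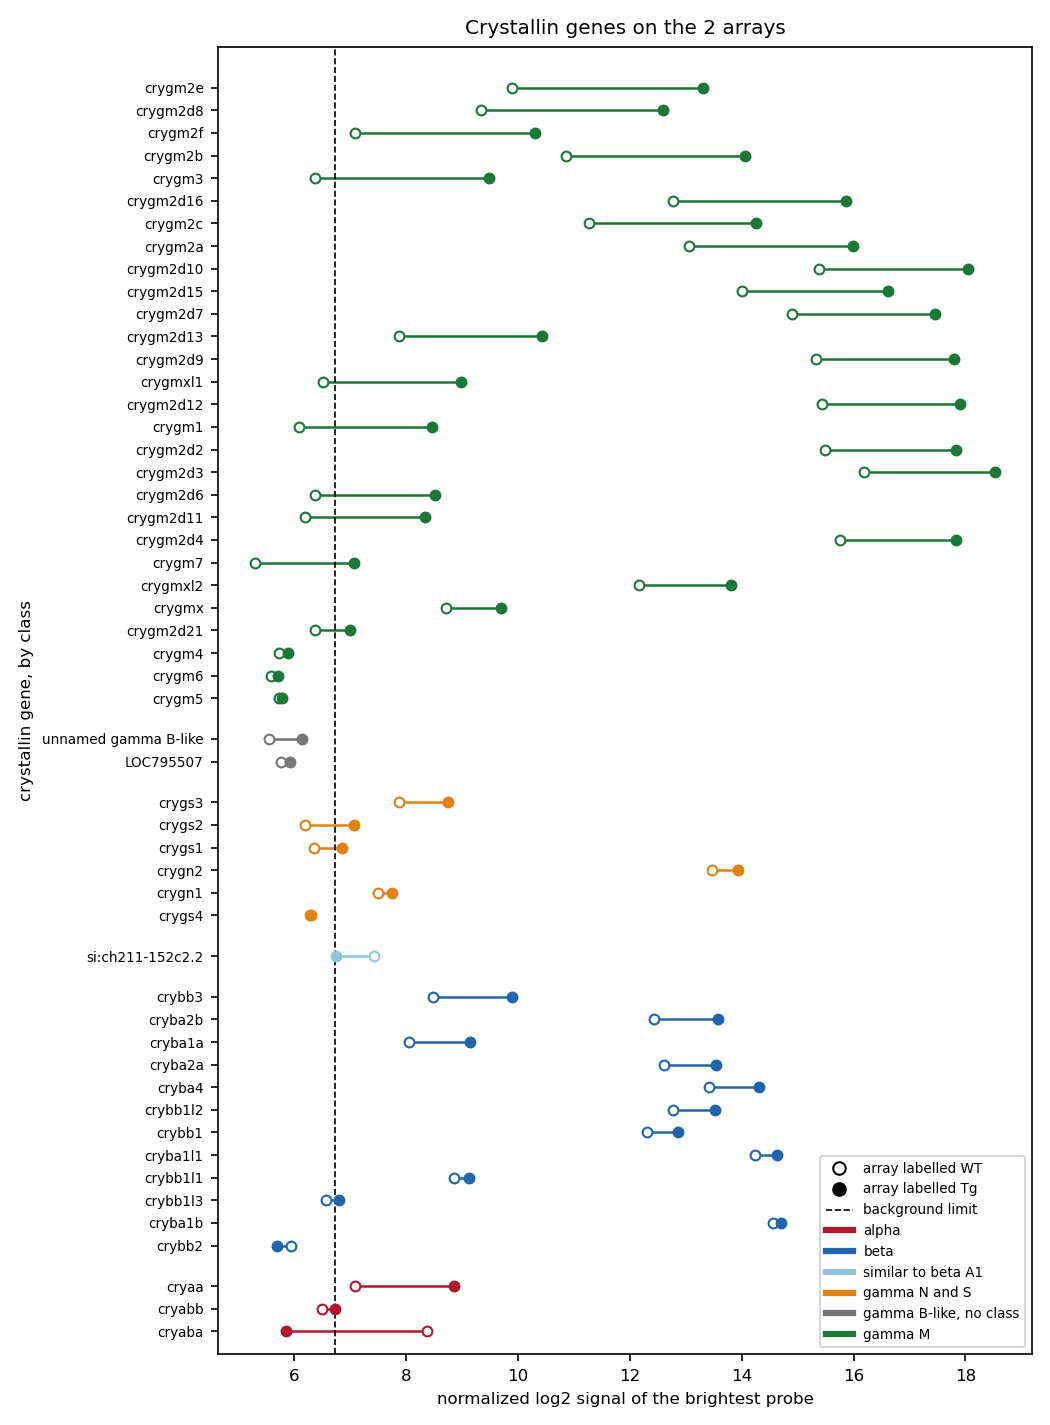
Normalized log2 signal (horizontal axis) of the brightest probe of each of the 52 crystallin genes (vertical axis), with an open circle for the array labelled WT, a filled circle for the array labelled Tg and the mean background limit as a dashed line. The filled circle lies to the right for nearly every gene above background, the gap is widest in the gamma M family, and cryaba and si:ch211-152c2.2 run the other way; levels of different genes are not comparable, since each is read by its own probe.

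The probes of one gene gave the only measure of error that these arrays hold. Over 12 crystallin genes with several probes above background on both arrays (30 probes), the pooled SD of the differences between probes of a gene was 0.203, and over 5687 genes of the whole array (14331 probes) it was 0.282. This is a spread between probes on the same RNA, and it says nothing of the spread between embryos. Some of the crystallin probes share much of their position with another probe of the gene. Such probes are not independent readings, so the SD may be too small. Probes below background on an array did not enter it, and with them probes of a gene differed by up to 2.84 for crybb3 and 3.14 for crygm2f. Of the 89 probes, 51 were above background on both arrays, 13 on the Tg array only, 2 on the WT array only and 23 on neither. Counting probes, 37 were at least 2-fold higher and 2 at least 2-fold lower, where 4.22% and 3.37% of all 26206 probes above background were.

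The 3 alpha crystallin genes did not share a direction. cryaa, which encodes the alpha A crystallin of the lens, read 7.09 for WT and 8.86 for Tg, a difference of 1.77 or 3.41-fold. Its other 3 probes read 7.30 and 8.56, 6.43 and 7.43, and 5.73 and 6.05 on the WT and Tg arrays. All 4 probes were therefore higher on the Tg array, although the last was below background on both. The brightest probe lies at chr1:22267692-22267751 and shares 59 bases of its position with the probe that differed by 1.26, so this pair of nearly identical sites differed from each other by 0.51.

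cryaba, a gene for alpha B crystallin, ran the other way, with 8.38 for WT and 5.84 for Tg. The Tg value was not above background, so the difference is given as at least 3.11-fold lower (measured difference -2.53). This rests on 1 probe, at chr15:16791730-16791789, because the second probe of the gene was at background on both arrays (5.40 and 5.50, difference 0.10). By the brightest probe of each gene, cryaba was the only crystallin called in that direction. The other cryaba probe could neither repeat the low Tg reading nor contradict it. The second probe of crybb3 was also lower on the Tg array, at least 2.61-fold (below). cryabb, the second alpha B crystallin gene, was below background on both arrays with all 3 of its probes, whose differences ran from -0.51 to 0.31. The median of the alpha class (-0.38) therefore stands between a pair of opposite values and describes neither.

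The beta crystallins were higher on the Tg array by a modest amount. Of 12 genes with a beta crystallin symbol, 11 were above background, 10 of them on both arrays. All 10 differences measured on both arrays were above 0, with a median of 0.82, and the median of the 11 was 0.75 (1.68-fold). Of the 11, 3 (27.3%) were 2-fold or more higher, beside 4.72% of all genes above background. Among the 3 was crybb3, which all these counts take by its brightest probe although its probes disagreed in direction (below). cryba2b, an acidic beta A2 crystallin, read 12.43 for WT and 13.57 for Tg (1.15, 2.21-fold), and its 3 probes gave 1.15 to 1.25. cryba1a, a beta A1 crystallin, read 8.05 and 9.15 (2.14-fold), with 0.76 at its second probe. The paralog cryba2a lay just under the threshold, from 12.62 to 13.54 (0.92), and 3 of its 4 probes reached 1.00 or more, so 2-fold falls within the disagreement of probes for these genes.

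The smallest beta differences were those of cryba1b (14.57 and 14.70, 0.13), crybb1l3 (6.56 and 6.79, above background on the Tg array only) and crybb1l1 (8.86 and 9.12, 0.26). Differences of this size are close to the spread between probes. Between these and the 2-fold genes lay cryba1l1 (0.39), crybb1 (0.56), crybb1l2 (0.75) and cryba4 (0.89). The 4 probes of crybb1, a basic beta B1 crystallin, gave 0.55 to 0.67, and the 2 probes of cryba4 both gave 0.89. The acidic beta A genes had a median of 0.90 (6 genes) and the basic beta B genes a median of 0.56 (5 genes above background), and both groups ranged widely enough to overlap. crybb2, which in mammals is the most abundant of the basic beta crystallins, was below background on both arrays.

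Some beta probes disagreed with each other. crybb3 gave the largest beta difference, from 8.48 to 9.89 (1.41, 2.65-fold), but its second probe read 8.12 for WT and 6.69 for Tg, at least 2.61-fold lower. The files place the brighter probe on the unassembled scaffold Zv8_NA177 and the other at chr5:4046132-4046191, and list no RefSeq transcript for either, so these arrays do not settle a direction for crybb3. For cryba1l1, a second probe reached 1.16 (9.09 and 10.24) where the brightest gave 0.39 (14.23 and 14.62). One more gene, si:ch211-152c2.2, is described in the files only as similar to a beta A1 crystallin, and read 7.43 for WT and 6.75 for Tg (-0.68).

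The gamma M crystallins differed most. Of 28 genes, 25 passed the background limit. On the Tg array 22 of those (88.0%) were 2-fold or more higher and none was 2-fold lower. Among all genes above background the shares were 4.72% higher and 3.54% lower. The median difference of the 25 gamma M genes was 2.47 (5.55-fold). The 18 of them above background on both arrays had a median of 2.59 and ran from 0.99 to 3.42. Within the family the M2 group was the most uniform. All 19 M2 genes were above background, 16 of them on both arrays, and these 16 lay between 2.07 and 3.42, so that each was more than 4-fold higher on the Tg array. No beta, gamma N or gamma S gene above background on both arrays reached the lowest of these 16 values.

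The highest difference of all crystallins was that of crygm2e, which read 9.90 for WT and 13.32 for Tg (3.42, 10.7-fold), and which ranked 4 among the 14424 genes above background on both arrays. crygm2d8 followed with 9.34 and 12.60 (3.26, 9.58-fold), and crygm2f with 7.08 and 10.31 (3.22, 9.34-fold). crygm2b (10.86 and 14.05), crygm2d16 (12.77 and 15.86) and crygm2c (11.27 and 14.25) differed by 3.19, 3.09 and 2.98. Each of these genes was read at a signal far from the background limit on the Tg array. On the WT array crygm2f (7.08) was close to the limit of 6.72, so its fold is less certain. Where M2 genes had a second probe above background on both arrays, it gave a like value, 3.09 and 3.11 for crygm2d16, and 2.33 and 2.41 for crygm2d3. Neither pair is a clear second reading of its gene. The second crygm2d16 probe lies at chr9:21625365-21625424, away from the first at chr9:21511174-21511233, and lists no RefSeq transcript. The crygm2d3 probes share 50 bases of their position, and each lists transcripts of 4 genes. The second probes of crygm2a and crygm2d15 were above background on the Tg array only, at least 5.44-fold and 5.55-fold higher, beside 7.55-fold and 6.11-fold at the brighter probes. The other probe of crygm2f, which shares 51 bases of its position with the first, stayed at background on both arrays (5.28 and 5.36).

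Lower values were seen in few M2 genes. crygm2d21 read 6.37 for WT and 6.99 for Tg, just past background, and was the only M2 gene not called 2-fold higher. It was above background on the Tg array only, and its bound was 1.2-fold. crygm2d11 (6.19 and 8.34) and crygm2d6 (6.37 and 8.52) were above background on the Tg array only and were at least 3.07-fold and 3.46-fold higher. crygm2d4, the lowest among those measured on both arrays, read 15.76 and 17.83 (2.07, 4.18-fold).

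**Figure D2:**
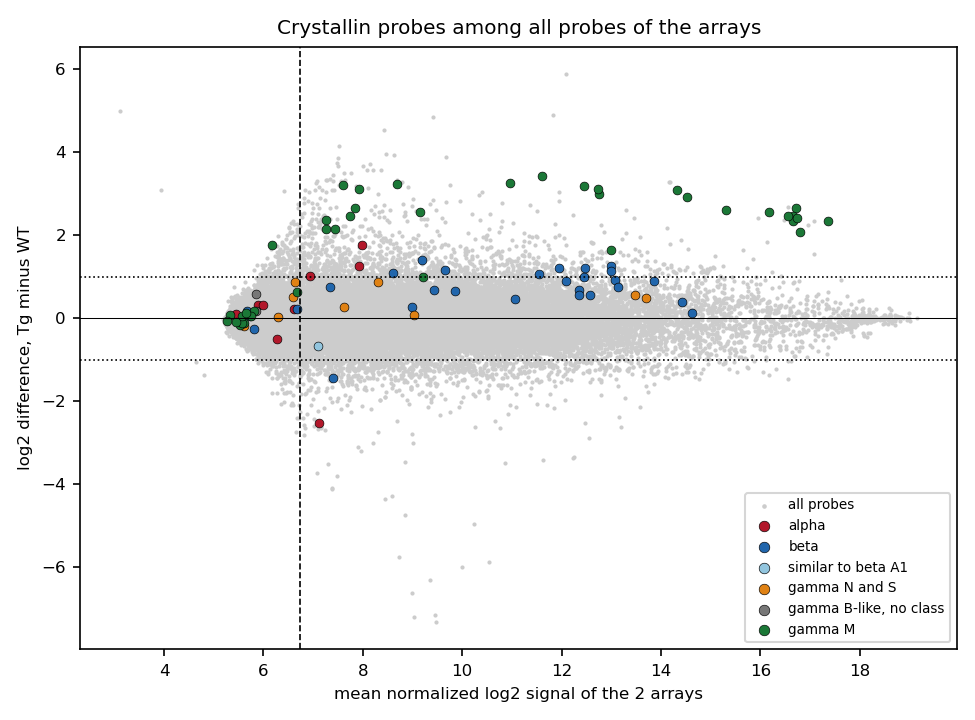
Log2 difference between the arrays (Tg minus WT, vertical axis) against the mean normalized log2 signal of the 2 arrays (horizontal axis) for all 43553 probes in grey and the 89 crystallin probes in colour by class, with 2-fold as dotted lines and the mean background limit as a dashed line. Most gamma M probes above background lie above 2, the exceptions being those of crygmxl2, crygmx, crygm7 and crygm2d21, and the gamma M probes at background lie near 0.

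Some M2 probes were read near the top of the signal scale. Of the 18 M2 probes above background on both arrays, 8 had a Tg signal above 17, with differences of 2.07 to 2.65, and the 10 others had differences of 2.56 to 3.42. No crystallin probe was above 17 on the WT array. Over the whole array 296 probes were above 17 on each array, and the highest value was 19.16 on both. The files carry no flags for saturated spots, and whether the brightest probes were limited by the top of the scale was not tested.

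A probe named for one M2 gene can match transcripts of others. The files list RefSeq transcripts of more than 1 gene for 6 crystallin probes, up to 4 transcripts each. These are the probes of crygm2d2, crygm2d7 and crygm2d10, both probes of crygm2d3, and 1 probe of crygm1. Of the 8 M2 probes above 17 on the Tg array, 5 list several genes, against none of the 10 others. Without such probes 21 crystallin genes were at least 2-fold higher, and the gamma M median was 2.51. For probes that list several genes, which of the M2 copies contributed to a signal cannot be told from these arrays. Whether the other M2 probes also pair with RNA of further copies was not tested.

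The gamma M genes outside the M2 group were less alike. crygm3 read 6.37 for WT and 9.48 for Tg, at least 6.72-fold higher, and crygmxl1 read 6.52 and 8.98, at least 4.78-fold higher. crygmxl2 read 12.17 and 13.81 (1.65, 3.13-fold), and its neighbour on chromosome 12, crygmx, read 8.71 and 9.70 (0.99), just under the threshold. crygm1 was at least 3.31-fold higher at 1 probe (6.08 and 8.45), while a probe that shares 57 bases of its position stayed at background (5.62 and 5.44). crygm7 read 5.30 and 7.06, but the bound of 1.26-fold kept it under the threshold, and its second probe was at background on both arrays. crygm4, crygm5 and crygm6 were below background on both arrays with every probe.

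Gamma N crystallins, which share features of the beta and gamma families, and gamma S crystallins, which mammals have as well, had no gene called at 2-fold. Of their 6 genes, 5 were above background, 3 of them on both arrays, and the median was 0.48 over these 3 and 0.34 over the 5 with genes measured on 1 array at their bound. crygn2 was bright, with 13.46 for WT and 13.94 for Tg (0.48), and its other 2 probes gave 0.55 and 0.07. crygn1 read 7.49 and 7.75 (0.26). crygs3 read 7.87 and 8.75 (0.88). crygs2 (6.19 and 7.06) and crygs1 (6.35 and 6.85) were above background on the Tg array only, at least 1.26-fold and 1.09-fold higher, and crygs4 on neither. The files describe 2 further genes as gamma crystallins without a class, LOC795507 and an unnamed gamma B-like gene, and both were below background on the 2 arrays.

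Most gamma M genes lie in a single interval of chromosome 9. The positions in the files, whose scaffold names belong to the Zv8 assembly, place 37 crystallin probes of 28 genes within chr9:21344742-21719899, a stretch of 375 kb. No annotation of that assembly was used here, so exons and introns are not given. The 24 M2 probes span chr9:21376248-21698382, 23 of them on the reverse strand, with crygm2e on the forward strand. All but 2 of the 24, that is 22, passed 2-fold in favour of the Tg array, beside 4.22% of all probes above background. At the low end of the interval, crygm6, LOC795507 and the gamma B-like gene were at background, and at the high end crygm5 and crygs4 were, while crygm3, which lies between these last 2, was among the highest.

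**Figure D3:**
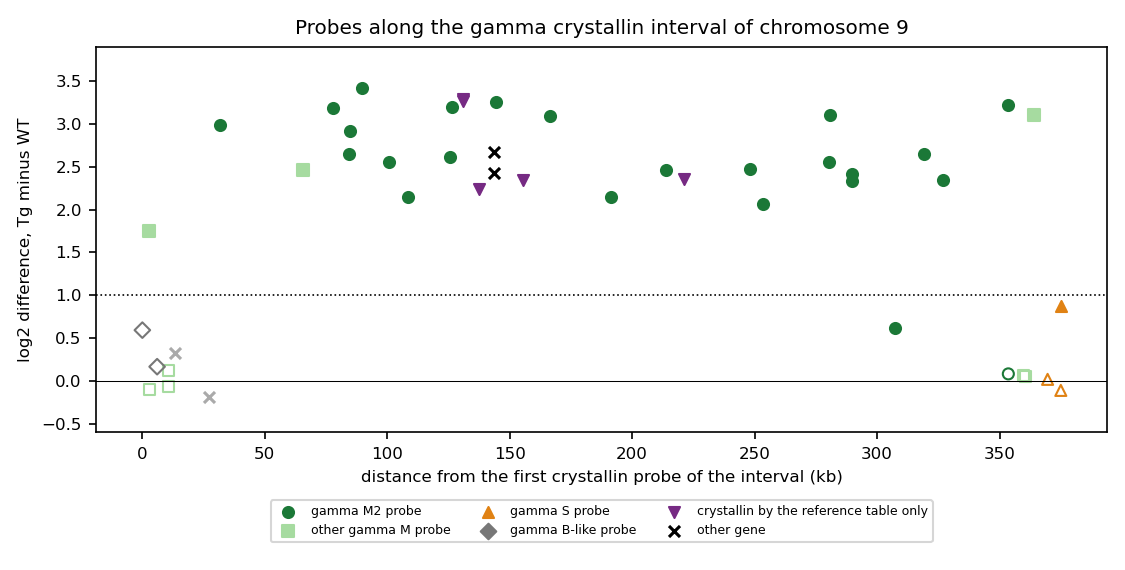
Log2 difference (Tg minus WT, vertical axis) of the 46 probes in the gamma crystallin interval of chromosome 9 by distance in kb from the first crystallin probe (horizontal axis), with 2-fold as a dotted line; open symbols and grey crosses mark probes below background on both arrays. M2 probes lie between 2.07 and 3.42 over about the whole interval except for crygm2d21 and 1 probe of crygm2f, and probes at background cluster at both ends.

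The rest of the interval was read by 9 probes that the naming rule did not take. Of these, 5 are named as crystallins only by the current reference gene table. They stand for crygm2d14, crygm2d17, crygm2d18 and crygm2d20, and their differences were 2.24 to 3.29. The 2 probes of crygm2d18 occupy the same position and gave 3.29 (12.51 and 15.80) and 3.28 (12.54 and 15.82), which shows how closely a repeated site was read. Another 2 probes, both for zgc:173645, gave 2.42 and 2.68. They lie between M2 probes on the reverse strand, and whether this gene is itself a crystallin was not determined. The last 2 probes, for zgc:153846 and si:dkey-57a22.15, were at background. Within 500 kb on either side of the interval, 25 probes of 14 other genes were above background, with a median difference of -0.12. Of these probes 1 was 2-fold higher and none 2-fold lower, beside 4.22% and 3.37% of all probes above background.

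Outside chromosome 9, the reference gene table named 5 more probes as crystallins of related families. cryba1l2 differed by 0.06, 0.11 and 0.56 at its 3 probes, crybgx by 0.70 (11.39 and 12.10), and crybg1a by -0.22 (8.50 and 8.28). None of them reached 2-fold.

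Overlapping probes showed how alike nearly the same site was read. There were 13 pairs of crystallin probes of the same gene, in 10 genes, whose positions share at least 30 bases. The difference between the arrays varied within a pair by a median of 0.186, and by under 0.5 in 10 pairs. These include the pairs of crygm4 (0.284) and crygm6 (0.186), at background on both arrays, whose small gaps do not show agreement on a signal. They also include the pair of cryba1l1 (0.33), of which 1 probe was at background. Only crygm1 (2.55) and crygm2f (3.14) exceeded 1, and in each of these pairs 1 probe stayed at background. Why probes at nearly the same site disagreed so widely was not tested. Requiring every probe above background to pass 2-fold left 23 of the 26 higher genes.

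Other genes of the lens were read beside the crystallins. A list of 19 lens genes on the arrays held fibre membrane and cytoskeleton genes and some of other function, such as dnase1l1l (below). Of the 19, 15 passed the background limit, with a median of 0.88. On the Tg array 6 were 2-fold or more higher and none was 2-fold lower, beside 4.72% and 3.54% of all genes. A difference above 0 was seen for 13 of the 15, and the lowest was that of epha2a (-0.62). dnase1l1l, which encodes a DNase that clears nuclear DNA from fibre cells in zebrafish, read 6.74 for WT and 8.83 for Tg (2.09). lgsn, for the lens protein lengsin, read 5.48 and 7.49, and lim2.5, for a fibre membrane protein, read 6.02 and 7.95, both above background on the Tg array only. The median of the lens fibre list was close to that of the beta crystallins (0.75) and below that of the gamma M family (2.47). Over genes above background on both arrays the 3 medians were 0.81, 0.82 and 2.59. The connexin genes gja3, gja8a and gja8b, which join fibre cells, were below background.

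Genes for transcription factors and cell cycle inhibitors known from lens development did not share that direction. Of 22 on the arrays, 21 were above background, with a median of -0.40 and differences above 0 for 6, up to 0.889 (cdkn1ca). None was 2-fold higher and 2 were 2-fold lower, beside 4.72% and 3.54% of all genes. The 2 lower genes were pax6b (10.99 and 8.98, -2.01), a paired box regulator of eye development, and six3b (12.69 and 11.05, -1.64), a homeobox regulator. The second probe of pax6b gave -0.93 and the other probes of six3b gave -1.32 and -1.57, so all probes had the same sign. sox2, which is also a gene of neural progenitors, followed (13.13 and 12.14, -0.99). Several of these genes are expressed in the brain and retina too, so in RNA of whole embryos their levels are not those of the lens alone.

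**Figure D4:**
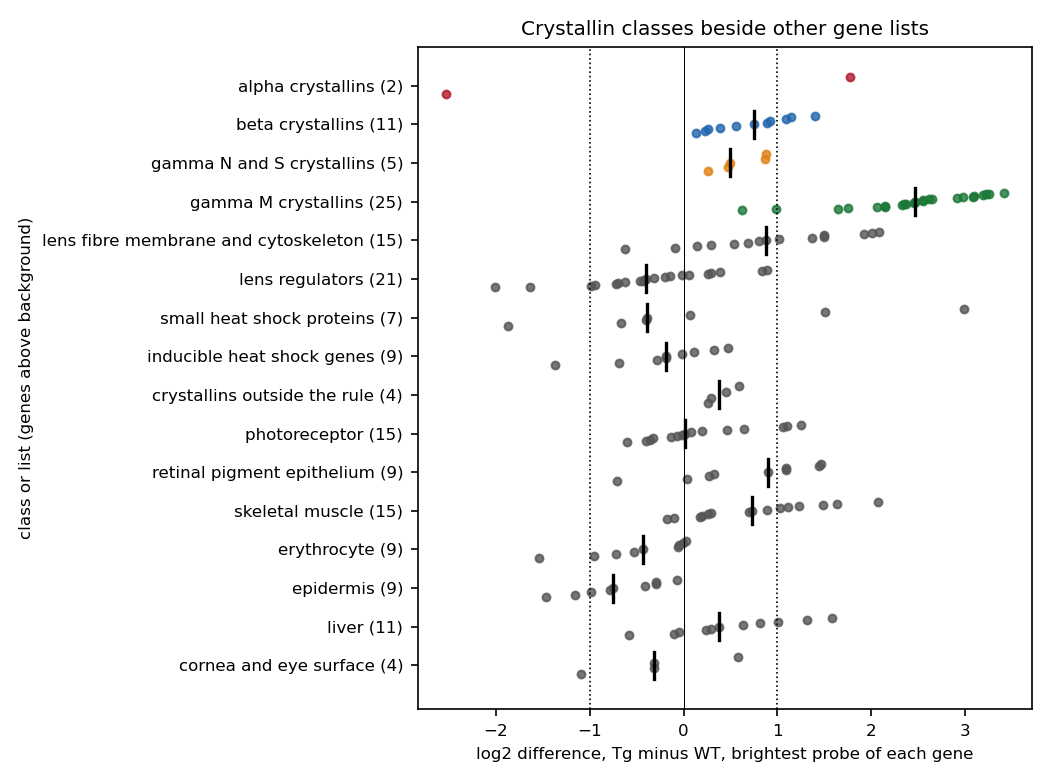
Log2 difference (Tg minus WT, horizontal axis) of every gene above background in 4 crystallin classes (colour) and in 12 lists for other gene groups and tissues (grey), with the number of genes in brackets, a vertical bar at the median where there are more than 2 genes, and dotted lines at 2-fold. The gamma M family lies furthest to the right (median 2.47), beta crystallins, lens fibre, pigment epithelium and muscle genes are moderately to the right, and lens regulators and epidermis lie to the left.

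Markers of other tissues were read on the same arrays, beside shares of 4.72% higher and 3.54% lower among all genes. Skeletal muscle genes had a median of 0.73 (15 of 16 above background, 6 higher), retinal pigment epithelium genes 0.90 (9 of 10, 4 higher) and liver genes 0.38 (11 of 12, 2 higher). Photoreceptor genes had a median of 0.01 (15 of 22, 2 higher), which is close to that of all genes. Epidermis genes had a median of -0.75 (9 genes, 2 lower), erythrocyte genes -0.43 (9 genes, 1 lower) and genes of the cornea and eye surface -0.31 (4 genes, 1 lower). The largest value in any of these tissue lists was that of the fast myosin heavy chain gene myhz2 (11.81 and 13.89, 2.07), below the median of the gamma M family. The lists are short, and probes of genes outside them exceeded that median, such as those of aspn (3.32) and clu (3.20). A probe of the troponin gene tnni2b.2, which the muscle list leaves out, did so too (2.87). The part that a different make-up of tissues or a different stage of the embryos has in the crystallin differences was not tested.

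Heat shock genes were read because alpha crystallins belong to the small heat shock proteins and because the transgene is driven by a heat shock promoter. Of 7 small heat shock genes above background, hspb2 (6.80 and 9.79, 2.99) and hspb3 (7.31 and 8.81, 2.83-fold) were higher on the Tg array, hspb9 (11.45 and 9.58, -1.87) was lower, and the median was -0.39. Inducible heat shock genes had a median of -0.18 (9 of 10 above background, none higher, 1 lower). Among all genes above background, 4.72% were 2-fold higher and 3.54% lower. Zeta, lambda and mu crystallins, enzymes that some animals recruited to the lens and that are expressed in many tissues, had differences of 0.26 to 0.60 (4 genes), none of them 2-fold.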

How the data were processed

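RNA of embryos of both genotypes was labelled with Cy3 by the authors and hybridized to 1-colour Agilent zebrafish arrays, with 1 array per group analysed here. Images were read with Agilent Feature Extraction, per the labels, which name no version. The authors deposited normalized log2 values, 1 per probe and array, for 43553 probes. The sources used here do not name the normalization. A table of both arrays held identical values. When each array was sorted, the 2 arrays lay within 0.026 of each other at 99% of the ranks.

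Values were taken relative to the 75th percentile of their array, a shift of -0.001 in each difference. The background limit, the 95th percentile of 170 odorant, taste and trace amine receptor probes, stood in for spot flags, which the files do not hold. It left 57.0% (WT) and 56.7% (Tg) of the probes above background. A gene above background on 1 array was called on its bound, the bright value against the lowest signal above background on the other array (or the dim value itself, if higher). Probes were named in the reference gene table by accession (26729 probes), symbol (2539) or older symbol (1670), by the name in the files (4487), or not at all (8128). That table is of another assembly than the probe positions and gave names only.

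Members and lists were chosen with earlier results of these data known. Values on both arrays are given for all alpha crystallins, the 3 highest and 3 lowest differences of each class, genes whose probes disagreed in sign or on the side of 2-fold, and at most 3 genes of each comparison list. Genes outside that rule were named after their values had been seen. No test was run, since groups of 1 array have no spread, and this number of arrays sets how precise a value can be. Alternatives were other scalings, probe choices, background limits, folds and sources of names, and 3 more that were added after seeing the data. The steps were tested on simulated data. The software was pandas 2.3.3 with numpy 2.4.6 for the tables and matplotlib 3.10.9 for figures, under Python 3.11.15.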

Additional observations from a re-analysis of the deposited data

How the results depend on the processing

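Under 15 other settings, the number of crystallin genes at least 2-fold higher on the Tg array was 26 as reported and lay between 18 (a 4-fold threshold) and 37 (probes counted in place of genes). The single lower call was less firm, with 0 genes from the mean over all probes, 0 at a stricter limit (99th percentile), 0 at 4-fold, 2 at 1.5-fold and 2 when probes were counted. The alpha median of -0.38, from a pair of opposite genes, moved to -0.066 with the mean over all probes and -0.64 with the probe nearest the gene's median. It reversed to 0.22 without a background limit, where cryabb entered, and to 1.13 over probes. The beta, gamma M and gamma N and S medians moved by less than the spread between probes, the gamma M median lying between 2.46 and 2.56. The direction of crybb3 reversed to -0.014 with the mean over its opposite probes. Of 426 values of single genes under other settings, this was the only reversal, and 7 others moved by at least the spread between probes. All of these came from settings that changed how probes stand for a gene. Many of the 426 values could hardly move, so the count is no measure of firmness. The arrays were already alike in scale, a background limit leaves a gene's difference as it is, and many genes have a single probe. No paired analysis was possible because each group has 1 array. For 8 of 52 crystallin genes, below background on both arrays, no difference could be measured.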
